A study of Homo sapiens with 12 samples.

Results

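Messenger RNA of 8 transcription factors was followed in 12 libraries of MDA-PCa-2b, a line grown from human prostate cancer: FOXA1, HOXB13, GATA2, the glucocorticoid receptor gene NR3C1, the mineralocorticoid receptor gene NR3C2, GRHL2, SPDEF and TRPS1. The genes were chosen by name as factors of prostate luminal cells and steroid receptors, with earlier results of these data known. So were the gene lists used below, and their counts beside the share of all genes are descriptive only. The factors were matched by symbol to the identifiers of the count tables. All 8 of 63241 listed genes matched 1 identifier each, and all 8 were among the 19373 genes with enough counts to test. The poly-A libraries form 4 groups of 3, which the labels call NT, KD1 and KD2 (2 DHODH knock downs) and KDR (a rescue of the second knock down). All groups are the same cell line and share its growth medium with serum. What NT abbreviates, which construct was used, how the rescue was made and whether a group is 1 clone are not given in the labels. The growth protocol also names the related line MDA-PCa-2a.

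In a luminal cell of the prostate, pioneer factors such as FOXA1 and GATA2 bind closed chromatin and make it accessible to steroid receptors, and the homeobox factor HOXB13 sets prostate identity together with them. Glucocorticoid and mineralocorticoid receptors are held by chaperones until a corticosteroid binds, after which they enter the nucleus, bind DNA and recruit coregulators. GRHL2 maintains epithelial adhesion genes, SPDEF is an ETS factor of secretory epithelium, and TRPS1 is a GATA-type zinc finger protein that represses transcription.

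Sequences upstream of a RefSeq start are shown for FOXA1, GATA2 and SPDEF. FOXA1 was the most abundant factor and GATA2 had the largest rise in KD2. The windows of FOXA1 and SPDEF held a forkhead motif, the kind of site FOXA1 binds. RefSeq promoter windows on GRCh38.p14 were searched for 5 of the 8 genes (15 windows for FOXA1, GATA2, NR3C1, NR3C2 and SPDEF). No windows of the other factors were used, which does not show that RefSeq lacks them. FOXA1, GATA2 and SPDEF lie on the minus strand, and each stretch is written 5′ to 3′ on that strand. Each is upstream of a RefSeq start and outside annotated exons, and that of FOXA1 lies within the Ensembl bounds of its gene. Capitals mark the forkhead match. The FOXA1 stretch is chr14:37595349-37595499, the GATA2 stretch chr3:128493202-128493451 and the SPDEF stretch chr6:34556334-34556579.
FOXA1: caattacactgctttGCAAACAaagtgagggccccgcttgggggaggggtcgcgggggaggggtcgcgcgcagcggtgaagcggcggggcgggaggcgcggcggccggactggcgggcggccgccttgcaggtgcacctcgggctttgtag
GATA2: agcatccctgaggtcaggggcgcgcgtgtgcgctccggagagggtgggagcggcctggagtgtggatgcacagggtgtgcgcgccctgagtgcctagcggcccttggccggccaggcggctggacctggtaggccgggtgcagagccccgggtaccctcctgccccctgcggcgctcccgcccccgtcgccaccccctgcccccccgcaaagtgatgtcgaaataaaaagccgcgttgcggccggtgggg
SPDEF: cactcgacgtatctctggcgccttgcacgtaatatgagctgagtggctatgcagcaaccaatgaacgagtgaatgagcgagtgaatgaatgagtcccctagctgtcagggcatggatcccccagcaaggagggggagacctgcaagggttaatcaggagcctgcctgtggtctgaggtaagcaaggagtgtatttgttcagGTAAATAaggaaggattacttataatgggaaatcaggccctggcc

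The FOXA1 match reads GCAAACA, the reverse complement of TGTTTGC, and starts 235 bases before the start site. In the SPDEF window the match reads GTAAATA, the reverse complement of TATTTAC, 49 bases before the start. Motifs were sought on both strands within 250 bases upstream of the start. Of all 35116 RefSeq windows of that length, 3.23% held TGTTTGC, 2.39% TATTTAC and 2.98% the third forkhead form, TGTTTAC. One of the 7 NR3C1 windows held TGTTTAC, 59 bases before its start, and CCGGAA, an ETS motif present in 14.5% of windows, at 173 bases. That whole window lies in annotated exons. A second NR3C1 window held CCGGAA as TTCCGG at 55 bases. The GATA motif AGATAA, found in 9.17% of windows, was in an NR3C2 window as TTATCT at 131 bases. Neither GATA2 window had a match to these motifs or to TGATAA (6.66% of windows), CCAATAAA for HOXB13 (0.863%), the steroid receptor half-site AGAACA (12.4%), the inverted repeat of it that full steroid receptor sites hold (0.00285%), AACCGGTT for GRHL factors (0.117%) or CCGGAT for SPDEF (5.85%). The printed GATA2 stretch had a GC content of 72.8%, the FOXA1 stretch 72.2% and the SPDEF stretch 51.2%, beside a median of 58.0% over all windows. These matches are letters in a window, and no binding was measured.

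Libraries held 23786288 to 38240369 counts. Replicates varied most in NT, with a biological coefficient of variation of 15.7%, against 5.53% to 7.17% in the remaining groups. Replicate 2 stood apart within NT: without it the NT spread was 8.56%, and limma-voom gave it a weight of 0.191 beside 0.871 to 1.44 in the other libraries. DHODH was not called lower under either knockdown label, with a mean of 10.5 ± 2.51 CPM (SD, n = 3) for NT, 10.3 ± 0.674 for KD1, 13.1 ± 1.73 for KD2 and 18.6 ± 0.918 for KDR. Each direction given here is therefore one of the libraries labelled KD1, KD2 or KDR, whatever their DHODH level. All 10 luminal markers examined, such as KLK3 and KRT8, reached 81.4 CPM or more on average in every group. Of 6 basal markers 3 were under 1 CPM in every group, TP63 and KRT5 among them with 9 and 6 counts in the 12 libraries together, while ITGA6 had 38.8 to 71.2 CPM, KRT15 2.87 to 4.62 and KRT14 1.05 to 3.24. Of 6 neuroendocrine markers 4 were under 1 CPM in every group, NEUROD1 with 0 counts, and the highest mean was 3.25 CPM for INSM1. For fibroblasts, 6 of 7 markers were under 1 CPM in every group, as were all 5 endothelial and all 5 immune markers. In bulk RNA, fewer cells of a type and less RNA per cell cannot be told apart. The labels do not say that replicates came from separate cultures, so p-values reflect variation among these libraries, possibly technical.

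Levels are counts per 1e6 counts (CPM), scaled by the trimmed mean of M values (TMM). Calls rest on edgeR's quasi-likelihood test, at a Benjamini-Hochberg adjusted p under 0.05 across all tested genes. In KD1 against NT, 0 of 8 factors were called, against a background of 0% of all genes. In KD2 against NT, 7 of 8 were called, 2 higher and 5 lower, where 35.9% of all genes were. In KD2 against KD1 the count was again 7, with 2 higher and 5 lower, at a background of 35.5%. In KDR against KD2, 2 rose and 1 fell, beside 32.4% of all genes called. Against NT, KDR had 2 factors higher and 3 lower, where 27.5% of all genes were called. The share of factors called was 87.5% for KD2 against NT or KD1, 62.5% for KDR against NT and 37.5% for KDR against KD2, the last near its background. In NT each factor's level per kilobase of exon exceeded that of at least 63.8% of the tested genes. No background of genes matched by level was used. The median absolute log2 fold change of the factors was 0.38 in KD2 against NT and 0.31 over all genes, and 0.18 against 0.29 in KDR against KD2. Libraries did not overlap for 7 factors and 42.5% of all genes in KD2 against NT, and for 7 and 49.7% in KD2 against KD1. In KDR against NT these were 6 and 38.2%, and in KDR against KD2 5 and 49.9%.

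**Figure D1:**
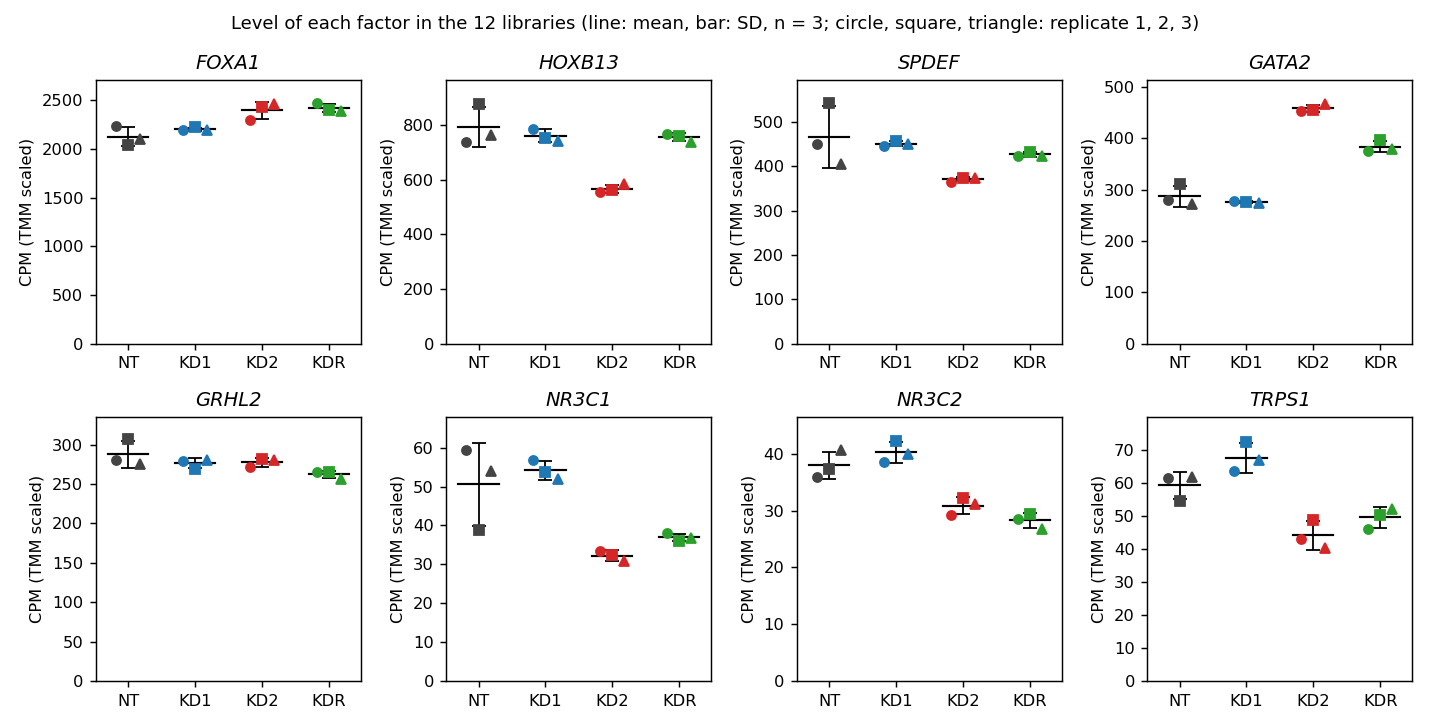
Level of each factor (vertical axis, CPM scaled by TMM, from 0) in the 4 groups; circles, squares and triangles are replicates 1, 2 and 3, the line is the mean and the bar the SD (n = 3). The KD2 libraries lie apart from all NT libraries for every factor except GRHL2, downward for HOXB13, SPDEF, NR3C1, NR3C2 and TRPS1 and upward for FOXA1 and GATA2. Of all tested genes, 42.5% also had no overlap between KD2 and NT.

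Per kilobase of exon, the levels of the factors differed widely in NT. FOXA1 stood at 482 CPM per kb, 39th of the 19373 tested genes, followed by HOXB13 (261, 79th) and SPDEF (243, 86th). GATA2 had 58.5 CPM per kb and GRHL2 47.5. The remaining factors were far lower, with 5.75 for NR3C2, 5.53 for NR3C1 and 5.37 for TRPS1. Even so, every library held at least 734 counts for NR3C2, 737 for NR3C1 and 967 for TRPS1.

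FOXA1, the pioneer factor (ENSG00000129514, GRCh38 chromosome 14, 37589552 to 37596059), had 2236, 2041 and 2106 CPM in NT and 2191, 2221 and 2196 in KD1. It had 2293, 2432 and 2464 CPM in KD2 and 2470, 2403 and 2390 in KDR. All KD2 and KDR libraries lay above all NT and KD1 libraries, and KDR overlapped KD2. The rise over NT was 0.17 on the log2 scale in KD2 (95% interval 0.09 to 0.26, edgeR adjusted p = 0.0023), or 12.6%, and 0.19 in KDR (0.10 to 0.27, adjusted p = 0.0016). These are small changes: 30.7% of all tested genes had a smaller absolute change in KD2 against NT. From KD2 to KDR the difference was 0.01 (-0.07 to 0.10, adjusted p = 0.83). KD2 exceeded KD1 by 0.12 (edgeR adjusted p = 0.026). That last call ended with scaling by total counts (0.08, adjusted p = 0.18), without a filter on low counts (adjusted p = 0.083), and when any KD1 library or KD2 replicate 2 or 3 was left out (adjusted p 0.055 to 0.12). Exons of FOXA1 and the opposite-strand gene TTC6 share 16 bases, or 0.36% of the FOXA1 exons, and the counting took no account of strand. TTC6 itself fell from 72.3 CPM in NT to 42.3 in KD2.

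HOXB13, the homeobox factor (ENSG00000159184, chromosome 17, 48724763 to 48728750), was lower in KD2 than in each of the other groups. Its levels were 739, 879 and 763 CPM in NT and 787, 754 and 743 in KD1. In KD2 they were 554, 561 and 583 CPM, and in KDR 769, 761 and 739. The KD2 libraries lay below every other library, while NT, KD1 and KDR overlapped. HOXB13 fell by 0.49 on the log2 scale in KD2 against NT (interval -0.60 to -0.37, edgeR adjusted p = 2.3e-07), a fall of 28.7%. It rose by 0.42 from KD2 to KDR (0.30 to 0.53, adjusted p = 2.8e-06). KDR and NT differed by -0.07 (-0.18 to 0.04, adjusted p = 0.39). The fall against KD1 was -0.43 (edgeR adjusted p = 1.5e-06).

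GATA2, the zinc finger pioneer factor (ENSG00000179348, chromosome 3, 128479427 to 128493201), moved the other way and had the largest rise of the 8. Its levels were 281, 310 and 271 CPM in NT and 278, 275 and 273 in KD1, against 454, 454 and 466 in KD2. The KDR libraries, at 376, 396 and 379 CPM, lay between KD2 and NT without overlap with either. GATA2 rose by 0.67 in KD2 against NT (0.56 to 0.78, edgeR adjusted p = 6.7e-10), or 59.4%. From KD2 to KDR it fell by 0.26 on the log2 scale (-0.36 to -0.15, adjusted p = 5.5e-04), and KDR stayed above NT by 0.42 (0.31 to 0.53, adjusted p = 2.3e-06). The antisense gene GATA2-AS1 shares 78 bases with the GATA2 exons (1.59%) and had 1725 counts in the 12 libraries together, while GATA2 had at least 6607 in each.

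**Figure D2:**
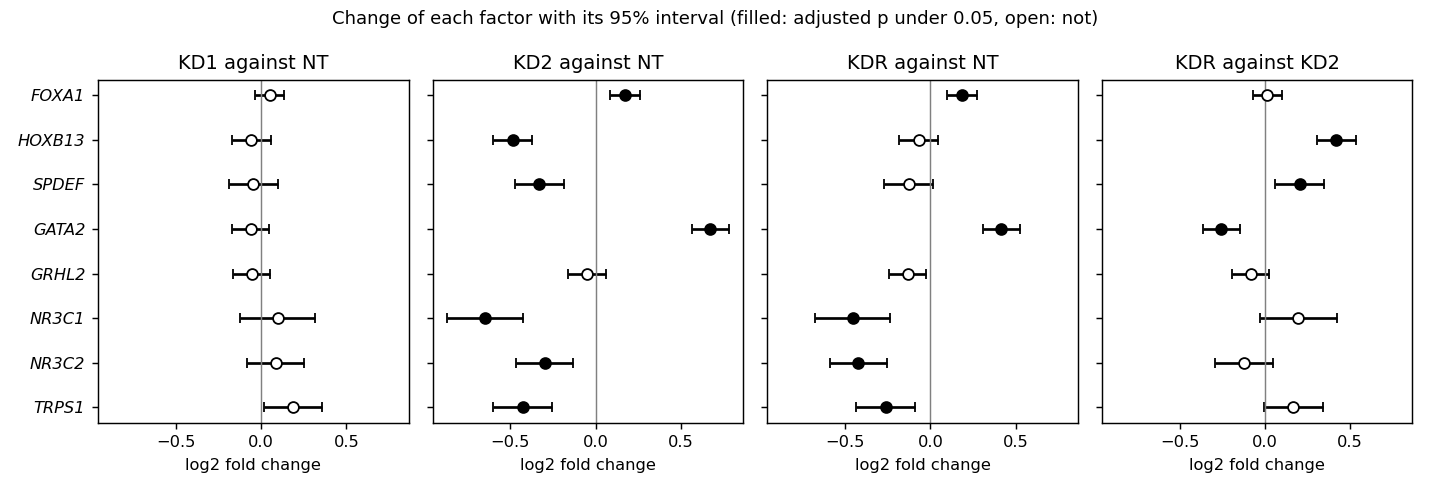
Log2 fold change (horizontal axis) of each factor with its 95% interval in 4 comparisons; filled points have an edgeR adjusted p under 0.05 and open points do not. All points are open for KD1 against NT, GRHL2 is open in every panel, and HOXB13, SPDEF and GATA2 are the filled points in KDR against KD2.

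NR3C1, the glucocorticoid receptor gene (ENSG00000113580, chromosome 5, 143277931 to 143435512), had 59.3, 38.7 and 53.9 CPM in NT, where replicate 2 was far below the others. It had 56.9, 53.7 and 51.9 CPM in KD1, 33.5, 32.4 and 30.8 in KD2, and 37.9, 36.1 and 36.8 in KDR. All KD2 and KDR libraries lay below all NT and KD1 libraries, and KD2 below KDR, though NT replicate 2 was close to KDR replicate 1. NR3C1 fell by 0.65 on the log2 scale in KD2 against NT (-0.87 to -0.43, edgeR adjusted p = 4.0e-05), or by 36.3%, and by 0.46 in KDR (-0.68 to -0.23, adjusted p = 0.0024). The difference from KD2 to KDR was 0.20 (-0.03 to 0.42, adjusted p = 0.18). It was called in 3 of 20 alternatives: limma-voom (adjusted p = 0.039), a fit of those groups alone (0.025) and the fit without NT replicate 2 (0.024).

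NR3C2, the mineralocorticoid receptor gene (ENSG00000151623, chromosome 4, 148078762 to 148444698), had 36.0, 37.4 and 40.6 CPM in NT and 38.6, 42.3 and 40.0 in KD1. In KD2 the levels were 29.3, 32.2 and 31.1 CPM, and in KDR 28.6, 29.5 and 26.8. Every KD2 and KDR library lay below every NT and KD1 library, and KD2 and KDR overlapped. NR3C2 fell by 0.30 on the log2 scale in KD2 against NT (-0.47 to -0.13, edgeR adjusted p = 0.0051) and by 0.42 in KDR (-0.59 to -0.26, adjusted p = 3.4e-04). The difference of NR3C2 from KD2 to KDR was -0.12 (-0.29 to 0.04, adjusted p = 0.27).

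Among 31 tested genes known to respond to glucocorticoids or mineralocorticoids, 18 were lower and 3 higher in KD2 against NT, where 18.2% of all genes were lower and 17.8% higher. Without NT replicate 2 the counts were 19 and 6. The median log2 fold change of the list was -0.34 beside -0.01 over all genes. FKBP5, a chaperone that restrains the receptors and is induced by them, fell from 320 ± 23.1 CPM to 151 ± 2.42 (-1.09, edgeR adjusted p = 2.9e-13). The repressor KLF9 fell from 167 to 73.3 CPM and the zinc finger gene ZBTB16 from 323 to 194. SGK1, a kinase of sodium handling, fell from 5.87 to 3.02 CPM. TSC22D3, a glucocorticoid-induced leucine zipper gene, was not called (109 and 112 CPM, 0.04, adjusted p = 0.67). From KD2 to KDR 13 of the 31 rose and 6 fell (median 0.13), with FKBP5 at 379 CPM, KLF9 at 151 and ZBTB16 at 342 in KDR. TSC22D3 reached 195 CPM in KDR, a rise of 0.80 over KD2. Against NT, 14 of the 31 were lower and 6 higher in KDR (median -0.18). Over all genes, 15.3% were higher and 17.1% lower in KDR against KD2, and 13% higher and 14.5% lower in KDR against NT. Without NT replicate 2, 17 of the 31 rose and 6 fell from KD2 to KDR. In KDR against NT 17 were then lower and 6 higher. FKBP5 and several other listed genes also respond to other steroid hormones.

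The enzymes that set the local supply of corticosteroids changed in part, with 2 of 6 tested genes higher and 1 lower in KD2 against NT. Of the 12 genes listed, 7 had a mean under 1 CPM in each group, and cortisol turnover was not measured. Over all genes, 35.9% were called in that comparison. HSD11B2, which inactivates cortisol, had 216 ± 33.4 CPM in NT and rose to 283 ± 7.56 in KD2 (0.39, edgeR adjusted p = 1.7e-04) and stood at 156 ± 3.07 in KDR, a fall of 0.86 from KD2. SRD5A1, a steroid 5-alpha-reductase, rose from 40.6 to 74.0 CPM and was at 43.3 in KDR. H6PD, which supplies the cofactor for cortisol regeneration, fell from 95.7 to 66.6 CPM and was at 94.4 in KDR.

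Of 29 receptor coregulators, 13 were higher and 2 lower in KD2 against NT (median 0.14, all genes -0.01), and 13 were lower and 3 higher in KDR against KD2. Over all genes 35.9% and 32.4% were called in those comparisons. The coactivator NCOA7 rose from 96.0 to 172 CPM, NCOA1 from 205 to 304, the Mediator subunit MED1 from 103 to 140 and the corepressor scaffold SIN3A from 88.3 to 114. In KDR these stood at 119, 225, 115 and 93.7 CPM. In KDR against NT 2 were higher and 1 lower, where 27.5% of all genes were called. Without NT replicate 2, 9 were higher and 3 lower. Of 18 receptor chaperones 4 were higher and 4 lower in KD2 against NT, where 35.9% of all genes were called. Without NT replicate 2 the chaperone counts were 7 higher and 2 lower. The HSP40 cochaperone DNAJB1 rose from 224 to 289 CPM and the p23 gene PTGES3 from 304 to 362, while BAG1 fell from 114 to 78.2. Between KD2 and KDR 2 chaperone genes rose and 3 fell, where 32.4% of all genes were called. Without NT replicate 2 these counts were 2 and 6. Of 30 other nuclear receptor genes, 5 were higher and 6 lower in KD2 against NT, a share near the 35.9% of all genes. THRB, a thyroid hormone receptor, fell from 36.3 ± 0.598 to 15.9 ± 1.49 CPM, and VDR, the vitamin D receptor, rose from 56.7 ± 6.83 to 89.8 ± 4.42. PPARG, a lipid-sensing receptor, rose from 0.384 ± 0.222 to 4.88 ± 0.177 CPM and the orphan receptor NR4A1 from 1133 ± 114 to 1647 ± 102. Of these 30 receptor genes, 9 were higher and 11 lower in KDR against NT, where 27.5% of all genes were called. From KD2 to KDR 7 rose and 7 fell, beside 32.4% of all genes called.

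GRHL2, the grainyhead factor of epithelial adhesion (ENSG00000083307, chromosome 8, 101492439 to 101669726), was not called in any of the 5 comparisons. Its levels were 280, 307 and 275 CPM in NT, 279, 269 and 281 in KD1, 271, 282 and 280 in KD2, and 265, 265 and 257 in KDR. NT, KD1 and KD2 overlapped and KDR lay below all of them. The log2 fold change was -0.05 in KD2 against NT (-0.16 to 0.06, edgeR adjusted p = 0.50) and -0.13 in KDR against NT (-0.24 to -0.02, adjusted p = 0.063). The latter was called by DESeq2 (adjusted p = 0.043) and without NT replicate 3 (0.023). Against KD2, KDR differed by -0.08 (adjusted p = 0.25), a difference called without NT replicate 2 (0.047).

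Of 29 epithelial genes known as GRHL2 targets, 13 were lower and 4 higher in KD2 against NT (median -0.11), or 13 and 7 without NT replicate 2. Of all genes, 18.2% were lower and 17.8% higher in KD2 against NT. CDH1, which encodes E-cadherin, fell from 304 ± 22.7 CPM in NT to 29.8 ± 4.49 in KD2 (-3.36, edgeR adjusted p = 5.9e-19) and was at 254 ± 2.99 in KDR. The splicing factor gene ESRP1 fell from 398 to 263 CPM and stayed at 288 in KDR, and PRR15L fell from 79.1 to 49.8. CGN, the tight junction protein cingulin, rose from 97.3 to 135 CPM. In KDR against NT 16 of the 29 were lower and 1 higher (median -0.20), where 27.5% of all genes were called. In KDR against KD2 5 rose and 9 fell, beside 32.4% of all genes called. Without NT replicate 2 these counts were 9 and 14. Across NT, KD2 and KDR, CDH1 thus went down and up again while GRHL2 had means of 288, 278 and 262 CPM.

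SPDEF, the ETS factor (ENSG00000124664, chromosome 6, 34537802 to 34556333), had 449, 542 and 405 CPM in NT, a spread that the remaining groups did not show. It had 446, 456 and 451 CPM in KD1, 365, 373 and 374 in KD2, and 424, 432 and 424 in KDR. The KD2 libraries lay below every other library. SPDEF fell by 0.33 on the log2 scale in KD2 against NT (-0.47 to -0.19, edgeR adjusted p = 5.6e-04), and by 0.21 without NT replicate 2 (adjusted p = 3.2e-05). Its rise from KD2 to KDR was 0.20 (0.06 to 0.35, adjusted p = 0.027). That call ended when any single KD2 or KDR library was left out, with values of 0.19 to 0.21 and adjusted p of 0.062 to 0.088. KDR and NT differed by -0.13 (-0.27 to 0.02, edgeR adjusted p = 0.19), by -0.01 without NT replicate 2 and by -0.22 without NT replicate 3 (adjusted p = 0.0073).

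Secretory genes known as SPDEF targets did not follow 1 direction: 5 of 12 tested were higher and 3 lower in KD2 against NT (median 0.36). Over all genes, 17.8% were higher and 18.2% lower there. CREB3L1, a transcription factor of secretory cells, rose from 362 to 558 CPM and fell to 244 in KDR. The protein disulphide isomerase AGR2 rose from 114 to 137 CPM and fell to 48.3 in KDR, and TFF1, a trefoil peptide, stood at 2.85, 7.35 and 15.8 CPM in NT, KD2 and KDR. The glycosyltransferase GALNT12 fell from 9.19 ± 0.736 to 0.440 ± 0.198 CPM. BCAS1 fell from 164 to 76.0 CPM and was at 78.0 in KDR.

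TRPS1, the GATA-type repressor (ENSG00000104447, chromosome 8, 115408496 to 115809673), had 61.6, 54.6 and 61.8 CPM in NT and 63.5, 72.4 and 66.9 in KD1. It had 43.1, 48.8 and 40.4 CPM in KD2 and 45.9, 50.4 and 52.2 in KDR. TRPS1 was the factor whose KD1 libraries all lay above NT, something that 9.40% of all genes also showed in either direction. That difference of 0.19 (0.02 to 0.36, edgeR adjusted p = 0.79, unadjusted p = 0.032) was not called, and DESeq2 and limma-voom also called 0 of 19373 genes in that comparison, in which 1185 had an unadjusted p under 0.05 in edgeR. TRPS1 fell by 0.43 on the log2 scale in KD2 against NT (-0.60 to -0.25, edgeR adjusted p = 2.7e-04) and by 0.62 against KD1 (adjusted p = 2.9e-06). In KDR it was lower than NT by 0.26 (-0.43 to -0.09, adjusted p = 0.021), a call that ended without NT replicate 1 (0.067), NT replicate 3 (0.060) or KDR replicate 1 (0.13). KD2 and KDR overlapped, with a difference of 0.17 (-0.01 to 0.34, edgeR adjusted p = 0.14), which was called only in the fit of those groups alone (0.17, adjusted p = 0.05 after rounding).

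For the other factors KD1 and NT overlapped and differed by -0.06 to 0.10 on the log2 scale. The widest 95% interval among them was that of NR3C1, -0.12 to 0.31. In KD2 against KD1, which sets the 2 knockdown labels against each other, GATA2 was higher by 0.73 (0.62 to 0.84, edgeR adjusted p = 1.6e-10). NR3C1 was lower there by 0.75 and NR3C2 by 0.38, SPDEF by 0.28, and GRHL2 differed by 0.01 (-0.10 to 0.11). The comparisons share NT or KD2 libraries, so their values are given side by side and not correlated.

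**Figure D3:**
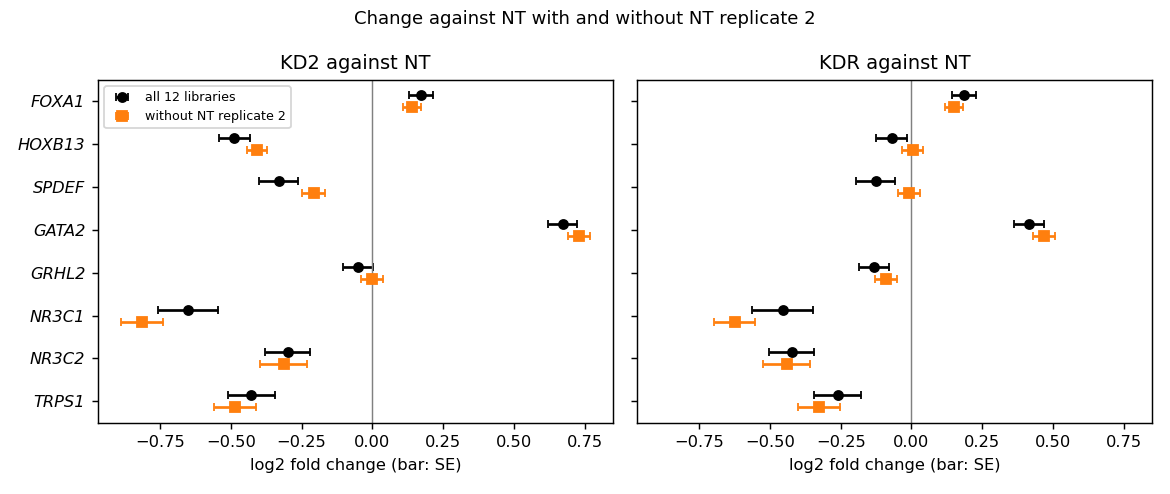
Log2 fold change against NT with its SE (horizontal axis) for KD2 and KDR, with all 12 libraries (black circles) and without NT replicate 2 (orange squares). NR3C1 moves from -0.65 to -0.81 and SPDEF from -0.33 to -0.21 in KD2 against NT, and all 7 called factors keep their side of 0 there.

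Leaving out NT replicate 2 moved the factors' values against NT in both directions. In KD2 against NT, NR3C1 went from -0.65 to -0.81, GATA2 from 0.67 to 0.73 and HOXB13 from -0.49 to -0.41. For KDR against NT, NR3C1 went from -0.46 to -0.62 and HOXB13 from -0.07 to 0.00364. In KDR against KD2, 5 factors were called in place of 3, with NR3C1 and GRHL2 added.

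Among relatives of the factors, ETV1 changed most of those named. Of 22 tested paralogs, 3 were higher and 5 lower in KD2 against NT, a share near the 35.9% of all genes. ETV1, an oncogenic ETS factor, had 360 ± 41.1 CPM in NT and rose to 1394 ± 38.0 in KD2 (1.95, edgeR adjusted p = 6.1e-17) and stood at 452 ± 8.44 in KDR. ETS2 fell from 132 to 90.3 CPM and ETV4 rose from 58.3 to 75.5. The GRHL2 paralog GRHL1 fell by 0.22 (adjusted p = 0.038), from 31.4 to 26.9 CPM. ELF3 had 198 and 195 CPM in NT and KD2 and was not called (adjusted p = 0.86), and EHF had 667 and 729 (adjusted p = 0.076). Among 24 other epithelial lineage factors, 9 were higher and 9 lower. KLF4 fell from 404 to 210 CPM and TFAP2A from 114 to 63.2, while SOX9 rose from 42.8 to 79.8.

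Genes that mark the secretory luminal cell fell in KD2 against NT in 19 of 21 tested cases and rose in 1, with a median of -0.71. Of all genes, 18.2% were lower and 17.8% higher in that comparison. FOLH1, prostate-specific membrane antigen, fell from 1491 ± 75.2 to 290 ± 3.29 CPM, the transporter SLC45A3 from 2125 ± 162 to 603 ± 17.8 and the phosphatase ACP3 from 621 ± 30.0 to 199 ± 3.31. The proteases KLK3 (8955 to 6282 CPM) and TMPRSS2 (3177 to 1894 CPM) fell less. In KDR 17 of the 21 rose and 1 fell against KD2 (median 0.65), where 15.3% of all genes were higher and 17.1% lower. In KDR against NT 4 were higher and 8 lower (median -0.13), where 13% of all genes were higher and 14.5% lower. HOXB13 was likewise lower in KD2 than in NT and KDR, whereas FOXA1 was higher in KD2 and KDR than in NT. In KD2 against NT, where 18.2% of all genes were lower and 17.8% higher, 3 of 8 basal markers were higher and 2 lower. There 2 of 7 neuroendocrine markers and 1 of 2 immune markers were higher, and 1 of 4 fibroblast and 2 of 3 endothelial markers were lower. Without NT replicate 2, 1 basal and 1 endothelial marker were lower. Among the markers ITGA6, a basal integrin, rose from 55.6 to 72.9 CPM, POU3F2, a neural factor, from 5.12 to 15.4 and CD4 from 0.360 to 1.96, while ESAM fell from 10.5 to 6.44 and COL1A1 from 3.94 to 1.49. Their part in the factors' changes was not tested.

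**Figure D4:**
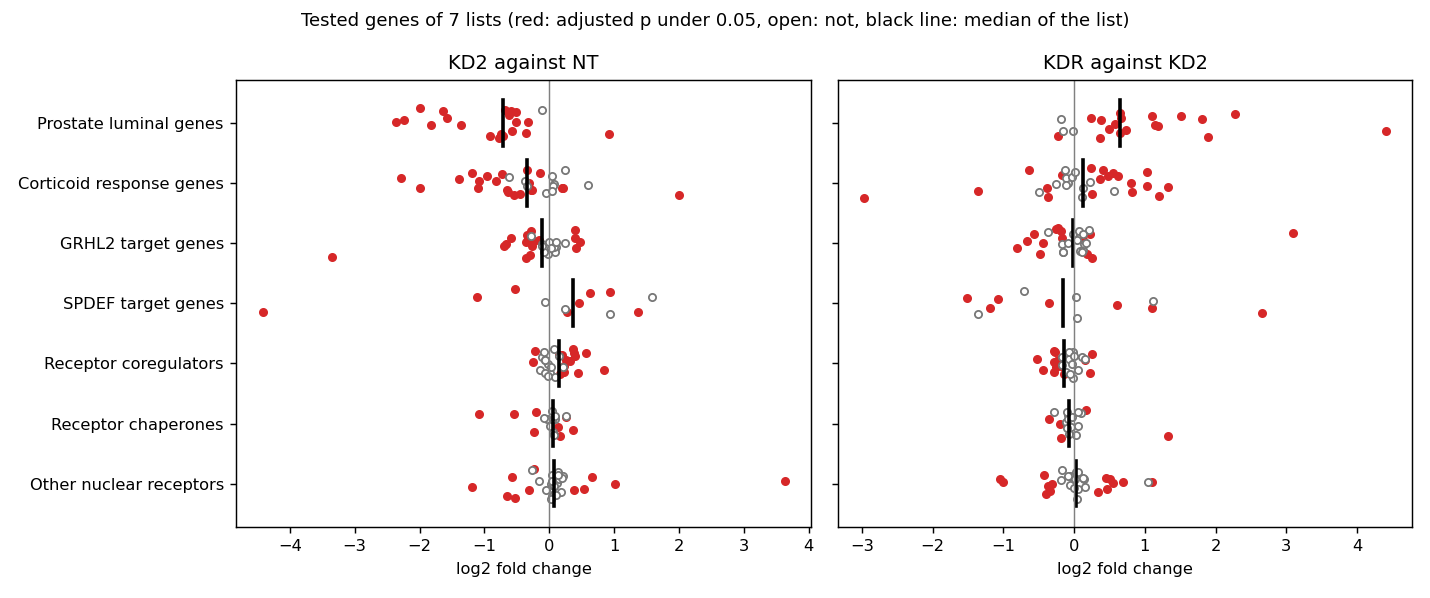
Log2 fold change (horizontal axis) of each tested gene of 7 lists (rows) in KD2 against NT and KDR against KD2; red points have an edgeR adjusted p under 0.05, open points do not, and the black line is the list's median. The luminal genes lie at a median of -0.71 in the first panel and 0.65 in the second, and the corticoid response genes at -0.34 and 0.13.

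Genes beside the factors on the chromosome were called in both directions, and their counts stand beside the 35.9% of all genes called in KD2 against NT. Within 500 kb of FOXA1, 9 genes were tested and 2 rose and 1 fell in KD2 against NT. TTC6, which overlaps the FOXA1 gene, fell by 0.77 on the log2 scale (edgeR adjusted p = 1.0e-07) and MIPOL1 differed by -0.21 (adjusted p = 0.069). Around HOXB13, which fell, 2 of 13 rose and 3 fell. PRAC1, a prostate gene 2.25 kb away, rose by 0.44 in KD2 (95.2 to 129 CPM) and stayed at 127 in KDR, while TTLL6 fell by 0.57. Around GATA2, 1 of 12 rose and 2 fell, among them RPN1 (-0.25) and RAB7A (-0.26). The single tested neighbour of NR3C1, ARHGAP26, and the 3 of NR3C2 were not called. Near GRHL2, which was not called, 5 of 9 fell and 0 rose, with NCALD at -1.15. Around SPDEF 4 of 15 rose and 6 fell, with PACSIN1 at -0.30 and ILRUN at -0.48. TRPS1 had no tested neighbour in that distance.

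The genes with the most similar pattern were sought among 10385 protein-coding genes averaging 5 CPM or more, by the root mean square difference of the 4 centred group means of log2 CPM. Only 4 values define each pattern. For HOXB13 the nearest were ZNF396 (0.0107), DYRK4 (0.0136) and WDFY2 (0.0147), and for GATA2 PRXL2B (0.00588), TYMS (0.0139) and SRF (0.024). API5 (0.00606), KNSTRN and MAP2K7 were nearest to FOXA1, and FBXO25 (0.0215), SLC66A3 and EXOSC6 to NR3C1. S100A10 (0.00932), AP1S2 and VAV3 were nearest to NR3C2, and EIF4G1 (0.00379), DYNLL1 and PCGF1 to GRHL2. SPDEF was closest to HDHD3 (0.00732), ORC5 and TMEM126A, and TRPS1 to IRAK1BP1 (0.0096), DAZAP2 and CLDN12.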

How the data were processed

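The authors deposited a table of raw counts per gene for each of 12 RNA-seq libraries. Per the file headers, featureCounts 1.6.4 counted reads over the exons of each gene of Ensembl release 111 (GRCh38), with no option for strand, pairs, overlaps or multiply mapped reads, so each end of a pair counts and near-identical copies are measured less surely. The submitters' processing notes also name FastQC, cutadapt and HISAT2, with versions not given in the sources used here.

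Of 63241 genes, 42338 had a symbol (99.3% of counts). In edgeR 4.0.16 (R 4.3.3), filterByExpr kept 19373 genes, libraries were scaled by TMM, and 1 quasi-likelihood model with the group as its only term was fitted to all 12 libraries. It was checked on data simulated with the same spread in every library, which does not cover the larger spread of NT. Adjusted p is by Benjamini-Hochberg over all tested genes, and a gene is called under 0.05. CPM are given with the SD over 3 libraries, and 95% intervals come from the model. Levels of marker genes said to lie above or under a CPM value use total counts.

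The 8 factors and the 15 gene lists were chosen with earlier results of these data known. Named genes are the factors, up to 4 called genes of each list by adjusted p in KD2 against NT and preset relatives and response genes, the 3 genes nearest in pattern, and up to 3 neighbours within 500 kb. Some genes are not reported here. Alternatives were DESeq2 1.42.0, limma-voom (limma 3.58.1) with library weights, other scalings, no filter, a fit of only the groups compared, a filter at 1 CPM in 3 libraries, a block for the replicate number, and leaving out each library. Counts of the lists without NT replicate 2 were added after seeing the data.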

Additional observations from a re-analysis of the deposited data

How the results depend on the processing

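Each of the 40 pairs of a factor and a comparison was recomputed under 20 alternatives. Of 22 called pairs, 19 stayed called in the same direction in all of them and 3 lost the call in at least 1 (FOXA1 in KD2 against KD1, SPDEF in KDR against KD2 and TRPS1 in KDR against NT, with the settings given in the report); the cause was not tested. No called pair reversed. Over the fits that leave out 1 library, HOXB13 in KD1 against NT ran from -0.108 to 0.0224, NR3C1 from -0.0645 to 0.227 and SPDEF from -0.134 to 0.0783, FOXA1 in KDR against KD2 from -0.0174 to 0.0312, HOXB13 in KDR against NT from -0.119 to 0.00364 and GRHL2 in KD2 against KD1 from -0.0134 to 0.023. Values that changed sign were not called under either setting. In KD1 against NT these were, with limma-voom, HOXB13 (0.000859), NR3C1 (-0.0254) and SPDEF (0.0374), and the same genes without NT replicate 2. FOXA1 in KDR against KD2 changed sign without KD2 or KDR replicate 1, and HOXB13 in KDR against NT without NT replicate 2. GRHL2 in KD2 against KD1 was at -0.0401 with scaling by total counts, -0.00416 with a minimum of 1 CPM, and -0.000481 with only the groups compared, and also below 0 without KD1 replicate 2, KD2 replicate 2 or KD2 replicate 3. In KD1 against NT 23 genes were called with no filter, 17 higher and 6 lower, and 0 with the filter. In KDR against KD2 5 factors were called with only the groups compared (4 higher, 1 lower) and 5 without NT replicate 2.

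Leaving out each library in turn gave 7 to 7 factors called in KD2 against NT, 2 to 5 in KDR against KD2, 4 to 6 in KDR against NT and 6 to 7 in KD2 against KD1, with 5958 to 7582, 5093 to 7876, 4177 to 6180 and 5856 to 8219 genes, and 0 of either in KD1 against NT. The replicate numbers did not pair the libraries: residuals of 1 of 18 pairs that share a number correlated at over 0.1 (range -0.161 to 0.25). With the number as a block, the factors called were 0, 7, 3, 5 and 7 and the genes 0, 6882, 6190, 5219 and 6789 in KD1, KD2 against NT, KDR against KD2, KDR against NT and KD2 against KD1. Scaling by total counts moved the median of all genes to at most 0.0672. GRHL2 had at least 6476 counts in each library, and its interval in KD2 against NT was -0.16 to 0.06. NR3C1, with at least 737 counts, had a wider interval there, -0.87 to -0.43, so the resolution differed between factors. NR3C2, with at least 734 counts, had a narrower interval than NR3C1, -0.47 to -0.13. Without NT replicate 2 the SE of NR3C1 in KD2 against NT went from 0.107 to 0.0734. What set the widths was not tested.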
